A study of Mus musculus with 18 samples.

Results

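The 38 genes described here encode the machinery of macroautophagy, from the kinase complex that starts it to the receptors that select its cargo. They were chosen by name: a member is a gene whose symbol in the platform annotation equals 1 of 38 fixed symbols, read from the probe set with the highest mean among those assigned to that gene alone. Such a probe set was found for 37 of the 38, out of 18193 genes on the array. Optn, a cargo receptor for ubiquitin-tagged mitochondria and bacteria, had none and is not analysed here. Of the 37, 36 passed a filter on dim genes (above the 40th percentile of an array on at least 3 arrays), as did 12719 genes in all. The gene that did not pass was Atg4c, a protease of the ATG4 family, which read 1.67 to 2.21 on the log2 scale, below the 40th percentile of each of the 18 arrays (3.20 to 3.35).

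The cells were G1E-ER4, a clonal mouse line of erythroid progenitor-like cells derived from embryonic stem cells in which Gata1 was disrupted. In all groups the cells carry a GATA1 protein fused to the ligand-binding domain of the estrogen receptor, so that estradiol switches on this transcription factor, the main driver of red cell genes. Total RNA was read on 18 Affymetrix arrays, 3 for each of 0, 3, 7, 14, 21 and 30 h in 20 nM estradiol. The 0 h cells are the untreated control. No arrays of cells grown without estradiol for the same hours were analysed here, so GATA1 activity, estradiol and time in culture cannot be told apart.

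Autophagy encloses cytoplasm in a growing double membrane, the autophagosome, which then fuses with a lysosome. A kinase complex around ULK1 starts the process, a lipid kinase complex marks the membrane with a phosphoinositide that WIPI proteins read, and ATG9 and ATG2 proteins supply lipid. Ubiquitin-like conjugation then attaches ATG8 proteins (the LC3 and GABARAP families) to the membrane, where they hold cargo receptors. Maturing red cells are known to clear mitochondria and other organelles by this route before they circulate.

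Erythroid marker genes served to check the cell type. The marker lists were chosen with earlier results of these data known. Of 12 fixed, 10 were measured, 8 of them above the 40th percentile on all 18 arrays. Their mean log2 level was 7.89 to 7.99 on the 0 h arrays and 11.11 to 11.15 on the 30 h arrays. The mean of 7 mast cell and basophil markers went from 4.88 to 5.07 at 0 h to 3.13 to 3.27 at 30 h, and that of 6 megakaryocyte markers from 4.99 to 5.05 to 4.09 to 4.16. Within these lists not all markers fell. Cpa3, Ms4a2, Gzmb and Hdc were called lower at 30 h (limma adjusted p under 0.05), while Cma1 and Mcpt8 were not called. Pf4 (-2.34) and Gp5 (-3.99) were called lower, Itga2b was not called and Gp9 was called higher (0.66). Tpsab1, Vwf and Ppbp were above the 40th percentile on no array. Granulocyte and macrophage markers (3.11 to 3.36) and lymphoid markers (3.36 to 3.69) lay near the dim end at both times. The gap between 3' and 5' probe sets of control RNAs, a sign of RNA length, widened from 0 to 30 h. On the log2 scale the Actb gap went from 1.89 to 2.20, the Gapdh gap from 1.13 to 1.52 and the Tfrc gap from 1.79 to 2.41. That of 18S ribosomal RNA moved most, from -0.51 to 0.91. The part of these shifts in the values below was not tested. In bulk RNA, fewer cells of a type and less RNA per cell cannot be told apart.

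By 30 h most of the machinery had risen. Of the 36 members tested, 29 were called higher than at 0 h and 2 lower (limma adjusted p under 0.05), while 36.6% of all tested genes were called higher and 33% lower. The 17 members that rose by at least 2-fold compare with 9.16% of all tested genes past that fold, and 0 members fell by that much against 13.1% of all. The median log2 change was 0.97 over the members and 0.09 over all tested genes. On the 3 arrays of each time, the values did not overlap for 29 members that were higher and 2 that were lower, against 37.7% and 34.6% of all tested genes. Without 0 h replicate 1, 1 member was called lower, and without 0 h replicate 2, 4 were. Rescaling each array to its hybridisation controls, RNAs added in known amounts, moved the median of all genes by 0.20 at 30 h. With it 29 members were called higher and 0 lower (39.3% and 20.3% of all tested genes), and the members' median was 1.17 against 0.30 over all genes.

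**Figure D1:**
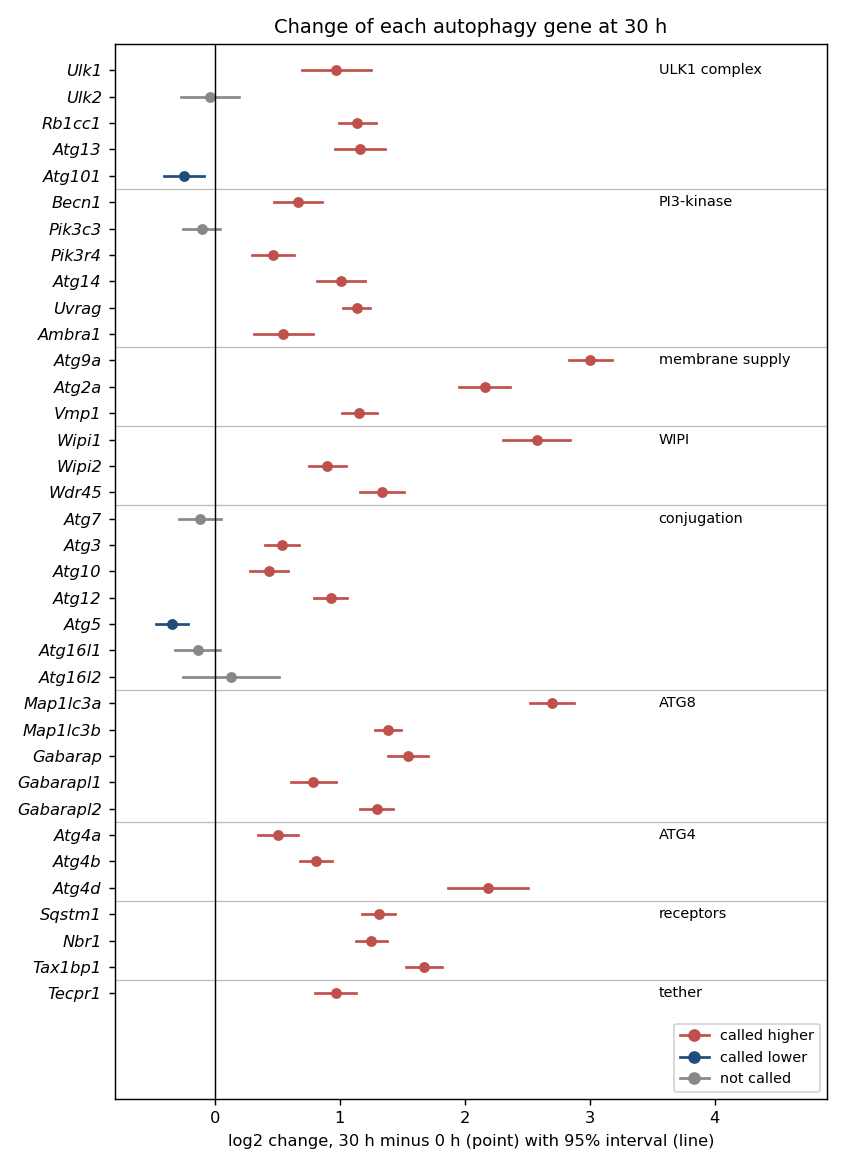
Log2 change from 0 to 30 h for each of the 36 tested autophagy genes, grouped by step, with the 95% confidence interval of the limma fit as a line. Genes called higher are red (29), called lower blue (2, Atg101 and Atg5) and not called grey (5). The longest rises are those of Atg9a (3.01), Map1lc3a (2.70) and Wipi1 (2.58), and the conjugation genes run from -0.34 (Atg5) to 0.93 (Atg12).

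The plot of changes at 30 h shows that the steps differed in size. The 3 genes of membrane supply had a median change of 2.16, the 5 ATG8 genes 1.39, the 3 WIPI genes 1.34, the 3 cargo receptors measured 1.31, the ULK1 complex 0.97, the 3 ATG4 proteases tested 0.81, the lipid kinase complexes 0.61 and the 7 conjugation genes 0.13. These medians describe the fixed groups, and differences between the groups were not tested.

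Sequence upstream of the start sites was taken from the RefSeq promoter table of build GRCm38.p6, which held 38 windows for 32 of the 38 genes. Rb1cc1, Becn1, Pik3c3, Atg12, Atg16l1 and Map1lc3a had no entry. The 250 bases before each start were searched on both strands for the GATA motifs AGATAA and TGATAA, for CACGTG, the core bound by the TFEB and TFE3 family, and for GTAAACA, the forkhead motif. AGATAA and TGATAA differ in their first base and so never match the same bases on 1 strand. AGATAA was found in 2 of the 38 windows (Atg4a and Atg4d) and in 9.99% of the 32851 windows in the table. TGATAA was found in 1 (Atg4a, 7.94% of all), CACGTG in 3 (Atg7, Atg3 and Atg5, 6.02% of all) and GTAAACA in 0 (3.17% of all). A match is a run of letters, not a site shown to be bound. The windows of 3 genes are shown, with matches in capitals: Atg4d, the member with AGATAA that rose most, Atg3, the member with a pair of CACGTG matches, and Atg9a, the member with the largest rise of all, in which none of the 4 motifs was found.
Atg4d (chr9:21265035-21265284, GRCm38.p6, plus strand): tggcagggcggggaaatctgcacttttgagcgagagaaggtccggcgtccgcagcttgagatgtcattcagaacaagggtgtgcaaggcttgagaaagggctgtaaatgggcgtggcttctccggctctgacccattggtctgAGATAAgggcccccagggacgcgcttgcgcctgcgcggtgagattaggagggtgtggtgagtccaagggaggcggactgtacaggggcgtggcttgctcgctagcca
Atg3 (chr16:45158579-45158828, GRCm38.p6, plus strand): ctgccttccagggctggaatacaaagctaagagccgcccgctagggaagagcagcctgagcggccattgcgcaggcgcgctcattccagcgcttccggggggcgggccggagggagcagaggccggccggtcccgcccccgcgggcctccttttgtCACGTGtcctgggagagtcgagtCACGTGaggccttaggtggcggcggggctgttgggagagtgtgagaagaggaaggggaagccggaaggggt
Atg9a (chr1:75192011-75192260, GRCm38.p6, minus strand): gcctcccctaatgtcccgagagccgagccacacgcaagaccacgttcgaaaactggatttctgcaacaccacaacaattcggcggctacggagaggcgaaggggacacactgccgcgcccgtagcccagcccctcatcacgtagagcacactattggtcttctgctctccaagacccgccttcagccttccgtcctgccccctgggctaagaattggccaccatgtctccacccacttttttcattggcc
In Atg4d the AGATAA begins 107 bases before the start, and in Atg3 the CACGTG matches begin 94 and 71 bases before it. The 3 genes with CACGTG did not move together at 30 h: Atg3 was called higher (0.54), Atg5 lower (-0.34) and Atg7 was not called (-0.12).

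Membrane supply held the largest change. Atg9a encodes the membrane protein whose vesicles seed the autophagosome and which moves lipid between the leaflets of the membrane. It read 7.31, 7.25 and 7.51 on the 3 arrays at 0 h and 10.45, 10.26 and 10.39 at 30 h. All 30 h arrays lay well above those at 0 h, a change of 3.01 on the log2 scale or 8.03-fold (SE 0.080, adjusted p = 2.12e-14). Atg2a, a bridge-like protein that carries lipid from the endoplasmic reticulum to the growing membrane, read 6.20, 6.00 and 6.26 at 0 h and 8.32, 8.24 and 8.38 at 30 h. The groups did not overlap, and the rise was 4.46-fold (log2 change 2.16, SE 0.097, adjusted p = 8.99e-12). Vmp1, which moves lipid across the endoplasmic reticulum membrane, read 10.71, 10.85 and 10.94 at 0 h and 11.98, 11.99 and 12.01 at 30 h. It was bright from the start and higher on all 30 h arrays (1.16, SE 0.066, adjusted p = 1.85e-10).

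Among the WIPI proteins, which bind the phosphoinositide mark, Wipi1 rose most. It read 5.91, 5.94 and 5.46 at 0 h and 8.43, 8.22 and 8.38 at 30 h, a 5.96-fold rise (log2 change 2.58, SE 0.126, adjusted p = 2.49e-11). The lowest 30 h array stood above the highest 0 h array by far more than the spread within either time. Its 5 tested probe sets all rose, by 0.51 to 2.58, and their mean gave 1.61. Wdr45, a relative that binds ATG2 proteins, read 9.58, 9.48 and 9.59 at 0 h and 10.87, 10.83 and 10.95 at 30 h, without overlap (1.34, SE 0.081, adjusted p = 3.91e-10). Wipi2, which brings ATG16L1 to the membrane, rose by 0.90 (SE 0.069).

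All 5 ATG8 genes were called higher, beside 36.6% of all tested genes, and 5 genes are few for such a count. Map1lc3a, the LC3 family member with the lowest signal at 0 h, read 6.28, 6.17 and 6.30 at 0 h and 9.01, 8.87 and 8.95 at 30 h. The change was 6.48-fold (log2 2.70, SE 0.083, adjusted p = 1.03e-13), without overlap, on a probe set whose name marks possible cross-hybridisation. A further Map1lc3a probe set without that mark rose by 2.30. Map1lc3b, which encodes the LC3 protein most used to follow autophagosomes, read 11.15, 11.20 and 11.25 at 0 h and 12.58, 12.61 and 12.58 at 30 h. The 30 h arrays were all higher and differed among themselves by little (log2 change 1.39, SE 0.051, adjusted p = 7.80e-13).

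The GABARAP family acts late, in closing the autophagosome and fusing it with the lysosome. Gabarap read 10.77, 10.74 and 10.62 at 0 h and 12.27, 12.30 and 12.19 at 30 h (1.55, SE 0.074, adjusted p = 1.96e-11). Gabarapl2 read 9.38, 9.42 and 9.33 at 0 h and 10.64, 10.74 and 10.64 at 30 h (1.30, SE 0.061, adjusted p = 1.68e-11). Neither gene's arrays overlapped between the times. Gabarapl1 read 9.79, 9.82 and 9.61 at 0 h and 10.48, 10.58 and 10.53 at 30 h, also without overlap and with the smallest rise of the family (0.79, SE 0.085, adjusted p = 4.44e-07).

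The ATG4 proteases trim ATG8 proteins so that they can be conjugated, and later cut them off the membrane. Atg4d, a family member also linked to mitochondria, read 6.74, 6.01 and 6.59 at 0 h and 8.64, 8.59 and 8.67 at 30 h. Its 0 h arrays were spread more widely than those at 30 h, with the second lowest, and the times did not overlap (4.56-fold, log2 change 2.19, SE 0.151, adjusted p = 1.86e-09). Atg4b, the most active of the proteases, rose by 0.81 from a mean of 10.66 (SE 0.062), and Atg4a by 0.51 from 7.59 (SE 0.075).

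The cargo receptors bind ubiquitin-tagged cargo and ATG8 proteins at once. Tax1bp1 read 9.80, 9.75 and 9.96 at 0 h and 11.58, 11.45 and 11.51 at 30 h (1.68, SE 0.068, adjusted p = 2.59e-12). Sqstm1, which encodes p62, read 8.96, 8.76 and 8.94 at 0 h and 10.22, 10.20 and 10.17 at 30 h (1.31, SE 0.061, adjusted p = 1.52e-11). Nbr1 read 10.67, 10.68 and 10.51 at 0 h and 11.90, 11.82 and 11.90 at 30 h (1.25, SE 0.059, adjusted p = 1.59e-11). In all 3 the arrays of the times were apart. Tecpr1, which tethers autophagosomes to lysosomes, rose by 0.97 from a mean of 5.35 (SE 0.077).

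In the ULK1 complex 3 of 5 genes (60%) were called higher and 1 (20%) lower, beside 36.6% and 33% of all tested genes. A group of 5 genes is small for such a count. Atg13, the subunit that carries nutrient signals to the kinase, read 6.53, 6.58 and 6.62 at 0 h and 7.78, 7.76 and 7.67 at 30 h (1.16, SE 0.093, adjusted p = 1.22e-08). Rb1cc1, the large scaffold also called FIP200, read 9.12, 9.05 and 9.15 at 0 h and 10.24, 10.32 and 10.19 at 30 h (1.14, SE 0.069, adjusted p = 3.53e-10). Both were higher on every 30 h array. Ulk1, the kinase itself, read 8.13, 7.96 and 8.31 at 0 h and 9.16, 8.96 and 9.20 at 30 h (0.97, SE 0.130, adjusted p = 5.57e-06). A further probe set of Ulk1 rose by 0.46. Its relative Ulk2 was not called (-0.03, 95% interval -0.27 to 0.20), and its 4 probe sets went both ways, with 0.36 and 0.48 called higher and -0.80 called lower.

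Atg101, which stabilises ATG13, was 1 of the 2 members called lower. It read 7.78, 7.55 and 7.58 at 0 h and 7.40, 7.35 and 7.41 at 30 h. The arrays did not overlap, by a narrow margin (-0.25, SE 0.075, adjusted p = 0.00843). The call was lost under scaling to the hybridisation controls (-0.04, adjusted p = 0.856), under quantile normalization (adjusted p = 0.0676) and without 0 h replicate 1 (adjusted p = 0.0565).

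The lipid kinase complexes showed a split between the catalytic subunit and its partners. Pik3c3, the kinase (VPS34), was not called at 30 h (-0.10, 95% interval -0.25 to 0.05). Uvrag, the partner that directs the kinase to endosomes, read 8.14, 8.15 and 8.16 at 0 h and 9.31, 9.27 and 9.29 at 30 h (1.14, SE 0.052, adjusted p = 1.07e-11). Atg14, the partner that directs it to autophagosomes, rose by 1.01 from a mean of 6.13 (SE 0.091, adjusted p = 5.05e-08). Those genes' arrays were far apart between the times, while those of Pik3c3 overlapped. Becn1, the shared beclin subunit, rose by 0.67 (SE 0.091) and Pik3r4, the regulatory subunit VPS15, by 0.47 (SE 0.078). The 5 Becn1 probe sets were all called higher, but by 0.22 to 1.28, a wider range than that SE conveys. Ambra1, a scaffold that joins beclin to upstream signals, rose by 0.55 (SE 0.112), but the mean over its probe sets changed by 0.12 (adjusted p = 0.130).

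The conjugation step had the smallest median change. Of its 7 genes, 3 rose (42.9%), 1 fell (14.3%) and 3 were not called, beside 36.6% higher and 33% lower of all tested genes. The share that rose is near that of all genes. By at least 2-fold 0 rose and 0 fell, beside 9.16% and 13.1% of all, and 7 genes are few for such a count. Atg12, the ubiquitin-like protein joined to ATG5, rose by 0.93 from a mean of 9.95 (SE 0.061, adjusted p = 1.02e-09). Atg3, the E2-like enzyme for ATG8 proteins, rose by 0.54 (SE 0.064), and Atg10, the E2-like enzyme for ATG12, by 0.43 (SE 0.072). Atg5, the acceptor of ATG12, read 7.79, 7.86 and 7.67 at 0 h and 7.46, 7.44 and 7.39 at 30 h. It fell by 0.34 without overlap (SE 0.061, adjusted p = 0.00012), and under scaling to the hybridisation controls the change was -0.14 (adjusted p = 0.545).

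The E1-like enzyme that activates both ubiquitin-like proteins, Atg7, read 8.06, 7.85 and 8.11 at 0 h and 7.94, 7.83 and 7.89 at 30 h. Those arrays overlapped and the gene was not called (-0.12, 95% interval -0.28 to 0.05). Its further probe sets disagreed, 1 being called lower (-0.75) and the other not called (0.26). Atg16l1, which places the conjugating complex on the membrane, changed by -0.13 (adjusted p = 0.172), and its dim relative Atg16l2, near 3.82 at 0 h, by 0.13 (adjusted p = 0.526). Without 0 h replicate 2, Atg7 (-0.19, adjusted p = 0.0473) and Atg16l1 (-0.21, adjusted p = 0.0463) were called lower. Under scaling to the hybridisation controls the small changes of Ulk2 (0.17), Pik3c3 (0.10), Atg7 (0.09) and Atg16l1 (0.07) turned positive, with none called.

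**Figure D2:**
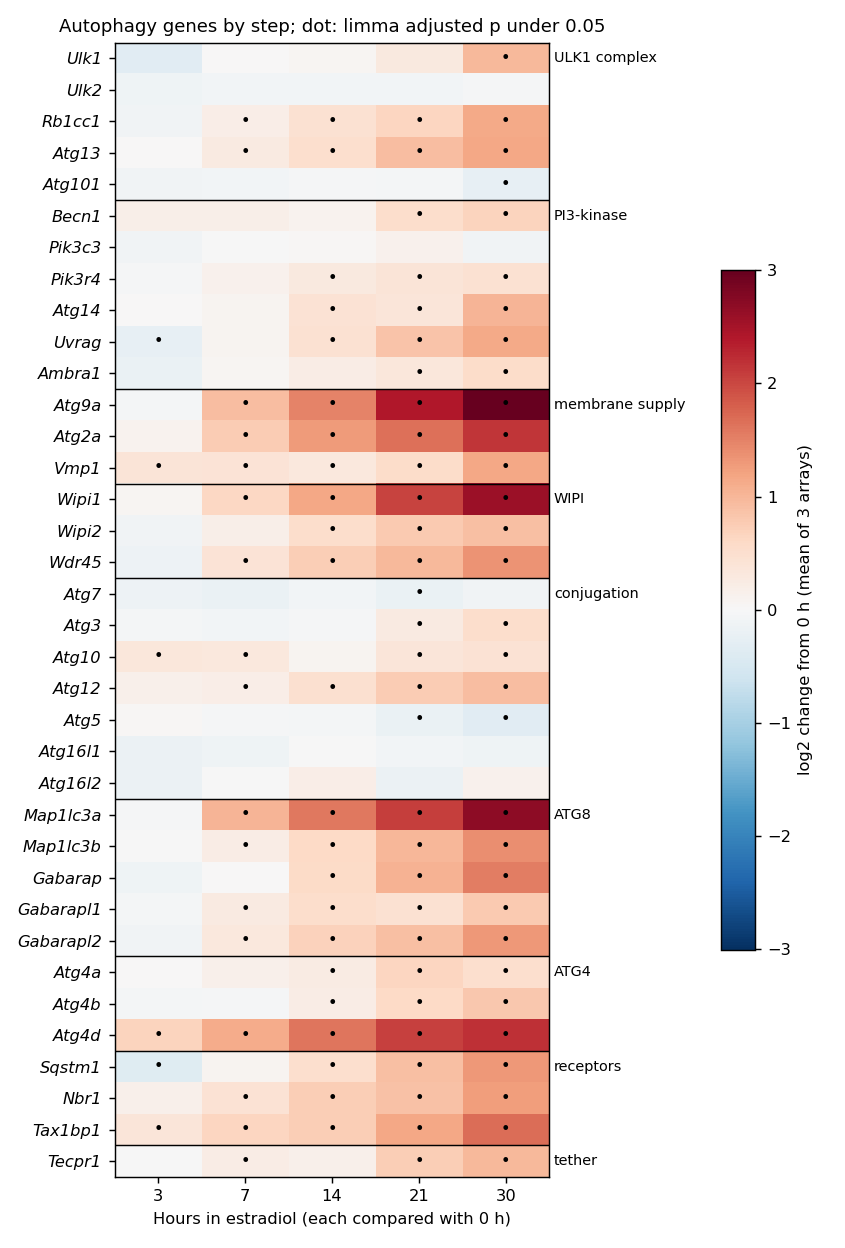
Log2 change of each of the 36 tested autophagy genes from 0 h after 3, 7, 14, 21 and 30 h, coloured from blue (lower) to red (higher), with a dot where limma's adjusted p was under 0.05. Red deepens to the right in most rows, from 4 genes called higher at 3 h to 29 at 30 h, and of the conjugation rows that of Atg12 reaches 0.93 while Atg7, Atg5 and Atg16l1 end slightly below 0.

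On the deposited values the rise was gradual, as the map of changes by time shows. At 3 h, 4 members were called higher and 2 lower (11.2% and 14.7% of all tested genes). At 7 h the counts were 17 higher and 0 lower (15.3% and 16.3% of all), at 14 h 23 and 0 (22.2% and 22.7%), and at 21 h 28 and 2 (31.4% and 28.6%). The median log2 change over the members was -0.05 at 3 h and 0.18 at 7 h, against -0.02 and 0.00 over all tested genes. It reached 0.45 at 14 h and 0.64 at 21 h, against 0.02 and 0.07. Each of these comparisons uses the same 0 h arrays. Without 0 h replicate 2, 5 members were called lower at 3 h and 1 at 7 h, and leaving out any of the 0 h arrays or 21 h replicates 2 or 3 left 1 lower at 21 h. Over the whole course, limma's F test called 30 of the 36 members changed, a share near the 74.3% of all tested genes. Scaling to the hybridisation controls gave 1 member higher at 3 h and 6 at 7 h, against 3.64% and 4.31% of all tested genes. It gave 21 at 14 h and 22 at 21 h, against 21.9% and 18.9%. No member (0) was called lower at these times under it, against 2.24%, 5.13%, 6.38% and 18.3% of all.

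The members called higher at 3 h were Atg4d, Vmp1, Tax1bp1 and Atg10. Atg4d went from a mean of 6.45 to 7.23, 7.19 and 6.91 on the 3 h arrays (0.67), and it was the member called under control scaling too (0.76, adjusted p = 0.0105). Vmp1 reached 11.19, 11.25 and 11.23 at 3 h, above all 0 h arrays (0.39), Tax1bp1 rose by 0.36 and Atg10 by 0.34. Atg10 was then not called at 14 h (0.07) and was called again at 21 and 30 h.

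Sqstm1 and Uvrag fell first and rose later. Sqstm1 dropped from 8.96, 8.76 and 8.94 to 8.53, 8.55 and 8.48 at 3 h (-0.37, SE 0.061, adjusted p = 0.000375), and read 8.97 on average at 7 h and 9.40 at 14 h, where it was called higher than at 0 h (0.51, adjusted p = 4.21e-06). Uvrag dropped from 8.14, 8.15 and 8.16 to 7.89, 7.97 and 7.89 at 3 h (-0.24, SE 0.052, adjusted p = 0.00312) and was called higher from 14 h on. In both genes the 3 h arrays lay below all 0 h arrays. Under control scaling the 3 h changes were -0.27 (adjusted p = 0.587) for Sqstm1 and -0.14 (adjusted p = 0.841) for Uvrag. Ulk1, lower by 0.34 at 3 h without being called (adjusted p = 0.0651), was the last to be called higher, at 30 h.

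Of the 29 members higher at 30 h, 17 had a lower mean at 3 h than at 0 h, and the means of 21 rose at every step from 3 h on. Their first call as higher came at 3 h for 4 of them and at 7 h for 13. For 8 it came at 14 h, for 3 (Ambra1, Atg3 and Becn1) at 21 h and for 1 at 30 h. Tecpr1, first called at 7 h, was not called at 14 h. On the deposited values, the median member had made 24.4% of its 30 h log2 change by 7 h, 43.9% by 14 h and 73.6% by 21 h. From 14 to 21 h the median change of the 36 tested members was 0.27 on those values (0.03 over all tested genes). Under control scaling it was 0.05 (-0.18 over all). On the deposited values, the largest of the 5 steps was 3 to 7 h for 9 members, 14 to 21 h for 9, 21 to 30 h for 7, 7 to 14 h for 2 and 0 to 3 h for 2. Under control scaling the median change of the tested members was 0.09 from 3 to 7 h (-0.13 over all tested genes). It was 0.52 from 7 to 14 h and 0.46 from 21 to 30 h (0.28 and 0.20 over all), so the order of the steps depends on the scaling. The shares of all genes are not given here for these counts of first calls, 3 h means and largest steps. The counts therefore describe the members and do not show a timing particular to them.

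**Figure D3:**
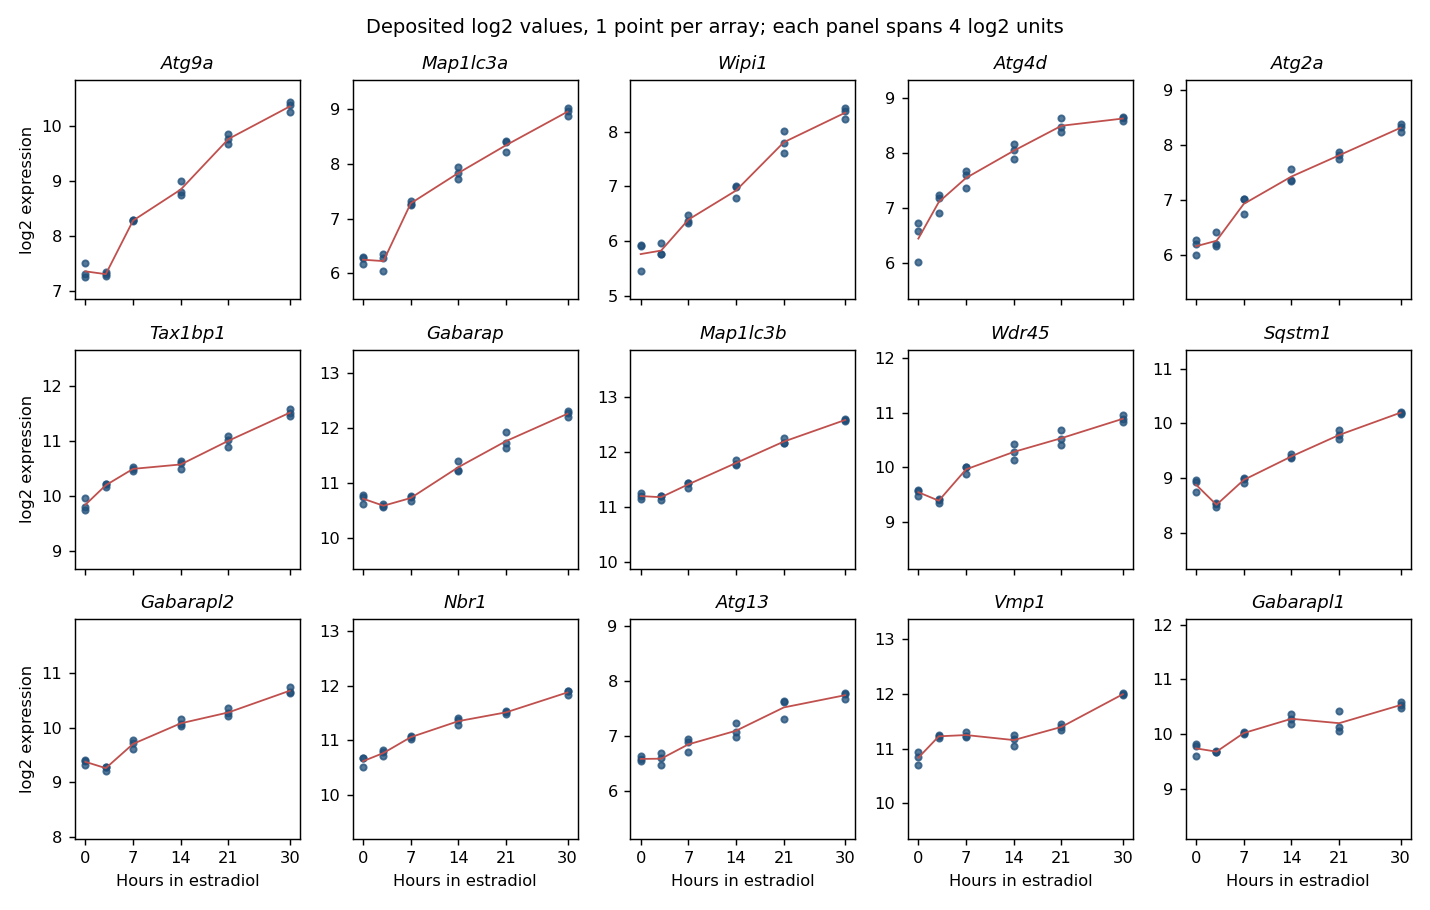
Deposited log2 values against hours in estradiol for 15 autophagy genes, 1 blue point per array and a red line through the means of 3 arrays, with every panel spanning 4 log2 units. Atg9a climbs from 7.36 at 0 h to 10.36 at 30 h with nearly all of it after 3 h, and Sqstm1 dips at 3 h. Gabarap averages 10.71 at 0 h, 10.58 at 3 h and 10.72 at 7 h, and climbs after that.

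Between neighbouring times, 7 h against 3 h gave 14 members higher and 0 lower (9.81% and 5.14% of all tested genes). The largest steps were those of Map1lc3a (1.05), Atg9a (0.98) and Atg2a (0.67). Map1lc3a went from 6.05, 6.35 and 6.28 to 7.25, 7.26 and 7.32, and Atg9a from 7.30, 7.27 and 7.35 to 8.29, 8.29 and 8.27. Under control scaling these 2 members were called higher in this step, against 0.999% of all. From 7 to 14 h, 18 rose and 1 fell (11.5% and 10.8% of all). Atg9a (0.57), Gabarap (0.56) and Map1lc3a (0.55) led, and the gene that fell was Atg10 (-0.24, adjusted p = 0.0278), a call lost without 7 h replicates 2 or 3 or 14 h replicates 1 or 3. Gabarap had read 10.66, 10.74 and 10.76 at 7 h, inside the range of its 0 h arrays, and 11.40, 11.23 and 11.22 at 14 h. Under control scaling 14 members were called higher from 7 to 14 h and 0 lower, against 10.3% and 1.24% of all tested genes.

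From 14 to 21 h, 23 members rose and 0 fell (15.7% and 17.5% of all), led by Atg9a (0.92), Wipi1 (0.88) and Tecpr1 (0.59). Scaling to the hybridisation controls, which shifted all genes by -0.22 in this step, left 2 members higher (Atg9a 0.71 and Wipi1 0.66) and 1 lower (Atg16l2 -0.57), against 0.959% and 13% of all tested genes. From 21 to 30 h, 20 rose and 1 fell (18% and 22.5% of all). Ulk1 (0.69), Atg14 (0.65) and Map1lc3a (0.61) led. Without 21 h replicates 2 or 3, 2 fell, and without 30 h replicate 2, 0 did; without 21 h replicate 3, 1 fell from 14 to 21 h. Pik3c3 was the member that fell, from 8.02, 7.98 and 8.04 to 7.87, 7.72 and 7.78 (-0.22, adjusted p = 0.0169), with 30 h arrays that overlapped those at 0 h. Under control scaling 15 members were called higher from 21 to 30 h and 0 lower, against 13.2% and 5.92% of all tested genes.

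**Figure D4:**
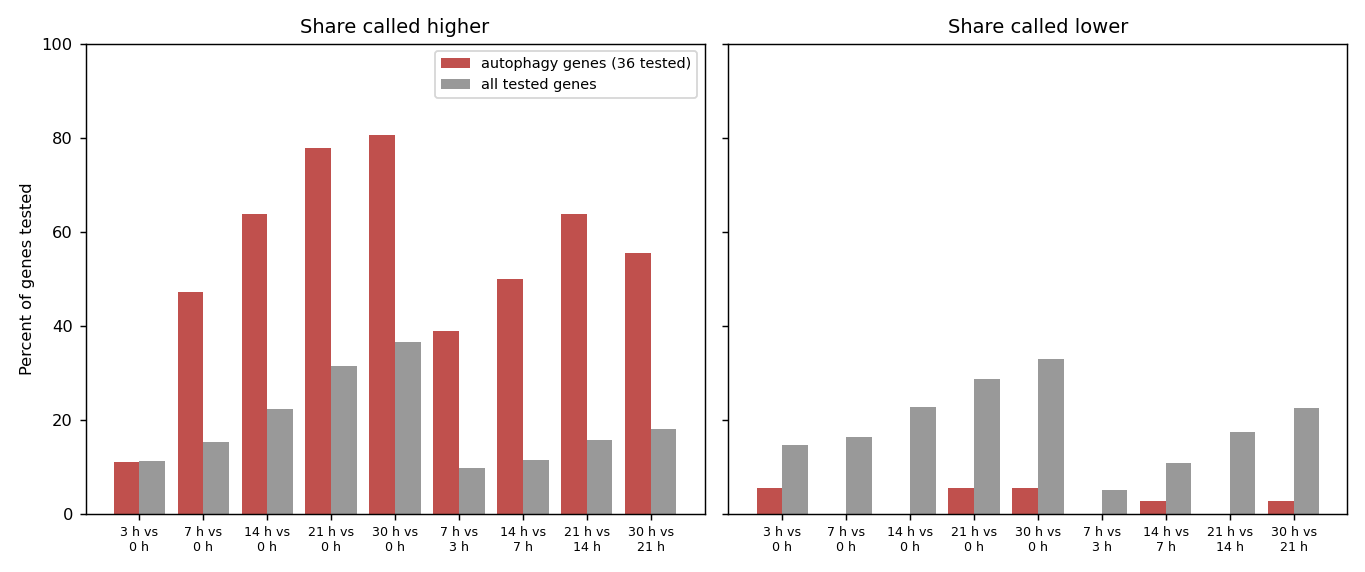
Percent of tested genes called higher (left) and lower (right) in each of 9 comparisons, for the 36 autophagy genes (red bars) and for all 12719 tested genes (grey bars). The red bars stand above the grey in the left panel at every comparison except 3 h versus 0 h, and below the grey in every comparison of the right panel.

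The bar plot of called shares sets these counts beside those of all genes. At 30 h, 80.6% of the tested members were called higher and 5.56% lower.

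Related genes were set against each other within each array, as the 30 h change of 1 minus that of the other. The 6 pairs were compared by an exact two-sided permutation test, which with 3 arrays against 3 cannot go below p = 0.10. Map1lc3a changed by 1.31 more than Map1lc3b, Wipi1 by 1.67 more than Wipi2, and Ulk1 by 1.01 more than Ulk2. Gabarapl1 changed less than Gabarapl2 (-0.51) and Atg4a less than Atg4b (-0.30). In these 5 pairs the difference between the genes did not overlap between 0 and 30 h arrays, and p was 0.10 in each (0.12 adjusted over the 6 pairs), the smallest the design can give. With the mean of each gene's probe sets the difference of Wipi1 over Wipi2 was 0.833 and that of Gabarapl1 over Gabarapl2 -0.32, and with quantile normalization that of Atg4a over Atg4b was -0.20. Over 5 alternative settings that of Map1lc3a over Map1lc3b ran from 0.89 to 1.42 and that of Ulk1 over Ulk2 from 0.72 to 1.01. The 2 Map1lc3a probe sets rose by 2.30 to 2.70 and the 4 of Map1lc3b by 1.23 to 2.27. The 2 of Ulk1 rose by 0.46 to 0.97, while the 4 of Ulk2 ran from -0.80 to 0.48. The 5 of Wipi1 rose by 0.51 to 2.58 and the 3 of Wipi2 by 0.69 to 0.90. In each of these pairs the gap therefore depends on the probe sets compared. Atg16l1 and Atg16l2 overlapped (-0.26, exact permutation p = 0.30).

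Other probe sets of the members were read as a check on the choice of 1 per gene. Of 78 tested probe sets for the members, 63 were called higher at 30 h, 5 lower and 10 not called. The share over all probe sets is not given here. Of 24 members with more than 1, 18 had all called higher and 1, Ulk2, had calls in both directions. The other 5 had called and uncalled probe sets, with calls in 1 direction: higher in Ambra1, Atg13 and Tax1bp1, lower in Atg5 and Atg7. Those of Atg13 changed by 0.26 to 1.16 and those of Tax1bp1 by 0.24 to 1.79, with 1 not called in each.

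Other genes of the pathway were taken from 5 fixed lists of 93 genes, of which 83 were tested. These lists were chosen with earlier results of these data known. At 30 h, 56 were called higher and 13 lower, with a median log2 change of 0.68, beside 36.6% higher, 33% lower and a median of 0.09 over all tested genes. Under control scaling the counts were 54 and 7, beside 39.3% and 20.3% of all. The genes called lower and named here without being among the 4 largest changes of their list were picked after their values were seen.

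Fusion with the lysosome had 15 of 17 genes (88.2%) called higher and 0 lower, beside 36.6% and 33% of all tested genes. Under control scaling the counts were 14 and 0, beside 39.3% and 20.3% of all. Plekhm1, an adaptor that joins late endosomes to ATG8 proteins, read 8.34, 8.39 and 8.28 at 0 h and 10.90, 10.87 and 10.89 at 30 h (2.55, SE 0.053, adjusted p = 1.45e-15). It was already higher on all 3 h arrays, at 9.22, 9.31 and 9.29. Vps18 (1.95) and Vps11 (1.80), core subunits of the HOPS tether, rose with it, as did the SNARE gene Snap29 (1.41).

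Among 13 receptors and mitophagy genes tested, 9 (69.2%) rose and 1 (7.69%) fell, beside 36.6% and 33% of all tested genes. Under control scaling the counts were again 9 and 1, beside 39.3% and 20.3% of all. Calcoco1, a receptor for endoplasmic reticulum and Golgi membranes, read 6.74, 6.93 and 7.07 at 0 h, 6.79, 6.88 and 6.90 at 3 h, and 10.66, 10.59 and 10.54 at 30 h (3.68, SE 0.085, adjusted p = 4.71e-15). The gene was far higher on every 30 h array. Pink1, the kinase that marks damaged mitochondria, rose by 2.34, Tbk1, which phosphorylates receptors, by 1.67, and Bnip3, a mitophagy receptor, by 1.49. Phb2, an inner mitochondrial membrane protein, fell by 0.89 (adjusted p = 5.78e-09).

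Nutrient control was mixed, with 16 of 28 genes (57.1%) higher and 7 (25%) lower, beside the 36.6% and 33% of all tested genes. Rragd, a GTPase that brings MTORC1 to the lysosome, read 7.77, 7.96 and 8.002 at 0 h and 12.36, 12.34 and 12.40 at 30 h (4.46, SE 0.062, adjusted p = 2.00e-17). At 3 h it lay below the 0 h arrays, at 7.39, 7.44 and 7.35. Stk11, the kinase that activates AMPK, rose by 1.80, Rraga by 1.63 and Sesn1, an inhibitor of MTORC1, by 1.30. The 7 that fell were Mtor (-0.23) and its partner Rptor (-0.30), Deptor (-0.78), Rheb (-0.40), Prkaa1 (-0.35), Ddit4 (-1.03) and Lamtor2 (-0.81). Under scaling to the hybridisation controls 16 were called higher and 3 lower, beside 39.3% and 20.3% of all tested genes. The 3 were Deptor, Ddit4 and Lamtor2. Mtor (-0.03), Rptor (-0.10), Rheb (-0.19) and Prkaa1 (-0.15) were not called under it.

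Of 10 transcriptional regulators of autophagy genes, 7 (70%) rose and 1 (10%) fell, beside 36.6% and 33% of all tested genes. Under control scaling the counts were again 7 and 1, beside 39.3% and 20.3% of all. The largest rises were those of Trp53inp2 (2.65), Ddit3 (2.52), Trp53inp1 (1.70) and Tfe3 (1.62). Tfe3 and Tfeb, which encode related activators of lysosomal and autophagy genes, went opposite ways. Tfe3 read 10.31, 10.25 and 10.20 at 0 h and 11.87, 11.91 and 11.85 at 30 h, while Tfeb read 5.67, 5.56 and 5.74 at 0 h and 4.96, 4.41 and 4.60 at 30 h (-0.996, adjusted p = 1.12e-05). Neither gene's arrays overlapped between the times.

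Of 15 other core and accessory genes, 9 (60%) rose and 4 (26.7%) fell, beside 36.6% and 33% of all tested genes. Bcl2 and Bcl2l1, survival genes whose proteins bind beclin, moved apart. Bcl2l1 read 8.05, 7.93 and 8.12 at 0 h and 10.53, 10.39 and 10.51 at 30 h (2.45, adjusted p = 8.40e-14). Bcl2 read 5.23, 5.45 and 5.48 at 0 h and 3.33, 2.64 and 3.20 at 30 h (adjusted p = 1.07e-09). It was called lower, but the 30 h readings lay near or below the 40th percentile of those arrays (3.28 to 3.35), so no size is given for the fall. Zfyve1, which marks the membrane site where autophagosomes form, rose by 1.86 and Dram2, a lysosomal membrane protein, by 1.56. The others that fell were Wdr41 (-1.09), Wdr45b (-0.46) and Nrbf2 (-0.29). Under control scaling 8 of the list were called higher and 2 lower, beside 39.3% and 20.3% of all. Wdr45b (-0.25) and Nrbf2 (-0.09) were not called under it.

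**Figure D5:**
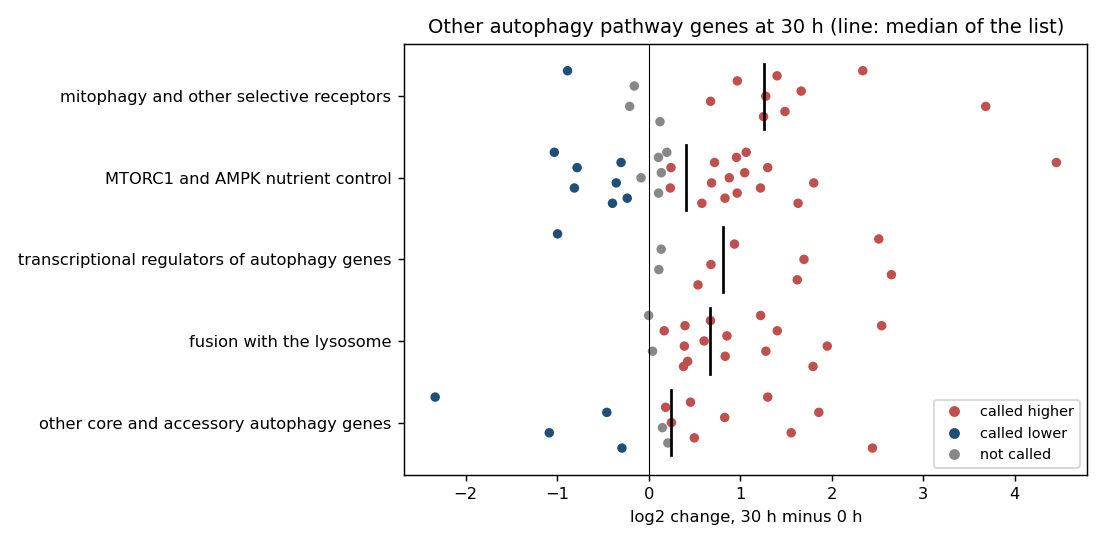
Log2 change from 0 to 30 h of 83 genes in 5 further autophagy lists, 1 point per gene (red called higher, blue called lower, grey not called), with the median of each list as a black bar. The points of the fusion list lie at or to the right of 0, and those of nutrient control spread to both sides, from -1.03 to 4.46.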

How the data were processed

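The files hold 1 log2 expression value per probe set and array, as the authors deposited them. How probes were summarised, background corrected and scaled is not given here. Array medians lay between 4.04 and 4.09, a common scale, so each change is relative to the middle of all genes. The labels name Trizol for extraction and biotin for labelling. They call the arrays biological replicates without saying that cultures were separate, so the spread behind the p-values may in part be technical.

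Genes were named through the platform annotation, from 34945 of 45101 probe sets that list 1 gene. A limma model (version 3.58.1, R 4.3.3) with 1 mean for each time was fitted to all 18 arrays, leaving 12 residual degrees of freedom. Two-sided p-values were adjusted by Benjamini-Hochberg across 12719 genes. The code was tested on simulated data. The number of arrays, 3 per time, limits the precision. Arrays of a time correlated at r of 0.995 to 0.998.

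The members, the pathway and marker lists and the rules were chosen with earlier results of these data known. Array values are given for the 14 called members with the largest change at 30 h whose arrays did not overlap, and for the 5 ATG8 genes. The 3 largest called changes per step and up to 4 per pathway list are named. Array values of Rb1cc1, Uvrag, Ulk1, Atg101, Atg5, Atg7, Pik3c3 and of the pathway genes were singled out after they were seen. Of the 93 pathway genes, 10 are not analysed here, having no single-gene probe set or being too dim to test. The alternatives were other normalizations, filters, probe set choices, variance models and samples, as listed in the closing section.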

Additional observations from a re-analysis of the deposited data

How the results depend on the processing

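Among the members, 30 of 36 changes at 30 h kept both direction and call under scaling to the hybridisation controls, with 2 calls lost (Atg101 and Atg5) and 4 uncalled changes turning positive. Under quantile normalization 34 kept both, with the call of Atg101 lost and the uncalled Ulk2 turned, and with the mean of probe sets 33 of 35 did. All 36 kept both under equal medians, no filter, a trended and robust variance, the replicate block and only the arrays compared. Counts of members called that moved by over 1.5 times were few-member counts, except under control scaling and the 2-fold minimum. Quantile normalization gave 1 lower at 21 h and 1 at 30 h versus 0 h, and equal medians 1 lower at 21 h versus 0 h and 3 lower at 30 h versus 21 h. Control scaling, which shifted the median of all genes by -0.22 to 0.28, gave 1 higher and 0 lower at 3 h, 6 higher at 7 h, and 0 lower at 21 h and 30 h versus 0 h. Between neighbouring times it gave 2 higher from 3 to 7 h, 0 lower from 7 to 14 h, 2 higher and 1 lower from 14 to 21 h, and 0 lower from 21 to 30 h. Of all genes it called 39.3% higher and 20.3% lower at 30 h, against 36.6% and 33%. No filter gave 1 lower at 21 h versus 0 h and 0 lower from 7 to 14 h, and a 60th-percentile filter 1 lower at 7 h versus 0 h and 3 lower from 21 to 30 h. The mean of probe sets gave 1 lower at 14 h and 0 at 21 h versus 0 h, and the arrays compared alone 0 lower at 21 h versus 0 h, from 7 to 14 h and from 21 to 30 h. A 2-fold minimum left 0 higher and 0 lower at 3 h, and 2, 5, 7 and 17 higher at 7, 14, 21 and 30 h versus 0 h, with 0 lower at 21 and 30 h. Between neighbouring times it left 1 higher from 3 to 7 h, 0 higher and 0 lower from 7 to 14 h and from 21 to 30 h, and 0 higher from 14 to 21 h. The cause of these shifts was not tested.

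Leaving out each array in turn gave 2 to 5 members lower at 3 h, 0 to 1 at 7 h, 1 to 2 at 21 h and 1 to 4 at 30 h versus 0 h. Between neighbouring times it gave 0 to 1 lower from 7 to 14 h, 0 to 1 from 14 to 21 h and 0 to 2 from 21 to 30 h. The count of members higher at 30 h versus 0 h stayed at 29. That at 7 h versus 0 h was 12 to 15, against 17 with all arrays. From 7 to 14 h 13 to 18 were higher, against 18, and from 14 to 21 h 19 to 22, against 23. With the replicate number as a block, 1 member was lower at 21 h versus 0 h and 2 from 21 to 30 h, and no other count moved by over 1.5 times. The deviations of arrays that share a number correlated weakly (r from -0.17 to 0.19, over 0.1 in 7 of 45 pairs). Their median r was 0.033, against -0.0055 for pairs with different numbers. Such values cannot show whether arrays with the same number came from the same cultures. Dim genes such as Atg16l2 are limited by their signal.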
